A study of Mus musculus with 2 samples.

Results

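The TOX family of high mobility group (HMG) box genes, Tox, Tox2, Tox3 and Tox4, was followed across the cell classes of the mouse cerebellum at postnatal day 1 (P1). The members were found by gene symbol, each symbol occurred once, and they made up 4 of the 32285 genes in each library. Single-nucleus RNA-seq was available as 2 libraries, each from 12 pooled cerebella. The control library came from littermates without Cre whose genotype was given as Tox3f/f, and its library name also allowed Tox3f/+. The other library was labelled Nestin-cre;Tox3f/f conditional knockout (cKO) and is called cKO-labelled here, since the counts do not check its genotype. Both groups carried floxed Tox3 alleles, in which loxP sites flank part of the gene, and both held male and female pups. Nestin-Cre is active in neural precursors, so that in Cre-positive pups neurons, Bergmann glia, astrocytes and oligodendrocytes descend from cells in which it acts, whereas microglia and fibroblasts have another origin. There was 1 library per group and no replicate, so no test between the groups was possible. The intervals given are exact 95% counting intervals and leave out the spread between animals, dissections and libraries.

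TOX proteins hold a single HMG box, a domain that bends DNA and recognises its shape more than its sequence. Tox is best known from the immune system, where developing T cells and exhausted T cells depend on it, and Tox2 acts in follicular helper T cells. Tox3 is a neuronal member that acts with CREB and CBP in calcium-dependent transcription, and the study examined it as a partner of Atoh1, the transcription factor that specifies granule neuron progenitors (GNPs). Tox4 is a subunit of the PTW/PP1 phosphatase complex and is made in most cells. GNPs divide in the external granule layer of the neonatal cerebellum and then become granule neurons (GN).

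The 4 genes lie on different chromosomes. In GRCm38 (GENCODE annotation), Tox (ENSMUSG00000041272) spans chromosome 4 from 6686353 to 6991557 on the minus strand in 9 exons. Tox2 (ENSMUSG00000074607) spans chromosome 2 from 163203125 to 163324170 on the plus strand, also in 9 exons. Tox3 (ENSMUSG00000043668) spans chromosome 8 from 90247040 to 90348343 on the minus strand in 7 exons. Tox4 (ENSMUSG00000016831) is the most compact, from 52279146 to 52296401 of chromosome 14 on the plus strand, in 10 exons. Exons made up 40.3% of the Tox4 span, 3.31% of the Tox3 span, 2.81% of the Tox2 span and 2.49% of the Tox span.

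The family shares its HMG box, so the transcripts were searched for stretches that reads could not tell apart. A single annotated transcript of each member was compared, the one with the longest coding sequence. No stretch of 90 bases, the read length of the study, was shared between these transcripts in any pair of members. The longest coding stretches that Tox shares with each other member, and that Tox2 shares with Tox4, are printed to show how short the identity is. They are written 5′ to 3′ on the coding strand without capitals, since every base is common to both genes.
Tox and Tox3 (from codon 177 and codon 171): ccagctgaccaccatcaaccagtc
Tox and Tox2 (from codon 251 and codon 278): aagaagaagaagaagaagga
Tox and Tox4 (from codon 291 and codon 253): gtatcgaagattgtggc
Tox2 and Tox4 (from codon 303 and codon 238): caggctgccatcaaggg
These stretches are 24, 20, 17 and 17 bases long. The Tox and Tox2 stretch repeats the letters aag, and those shared with Tox4 lie in the HMG box. Reads from these transcripts of one member therefore did not match those of another over their full length. Exons found only in other transcripts, and introns, were not searched. Other genes on the opposite strand overlap part of Tox (Gm11802, 15992 bases) and of Tox4 (Mettl3, 1561 bases, and Rab2b, 400 bases). Whether the counting used strand is not stated in the sources used here, and UMIs from those parts were not examined on their own.

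Levels are unique molecular identifiers (UMIs) of a gene per 1000000 UMIs of the same nuclei (CPM). After filtering, control held 4667 nuclei with 20493455 UMIs and the cKO-labelled library held 6555 nuclei with 30169066 UMIs. The median depth of these kept nuclei was 3978 and 4025 UMIs. Before filtering, 9 barcodes occurred in both libraries. Nuclei with an Xist UMI made up 47.0% of control and 63.2% of the cKO-labelled library, so the pools differed in their share of female nuclei, and main ratios were also taken within each sex. Classes were clusters named "-like" from marker lists. In every class of 50 or more nuclei per library, the summed markers of its own list exceeded the level over the whole library, from 11020 against 325 CPM for microglia-like nuclei to 9864 against 7334 CPM for GN-like nuclei, both in control. The names were given from the same markers, so this excess follows from the naming and is no separate check of the classes.

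Over all kept nuclei, Tox and Tox3 were the members with most UMIs and Tox2 was scarce. Control held 2029 Tox, 111 Tox2, 2127 Tox3 and 1384 Tox4 UMIs, or 99.0, 5.42, 104 and 67.5 CPM. The cKO-labelled library held 3169, 226, 3571 and 1772 UMIs, or 105, 7.49, 118 and 58.7 CPM. Per kilobase of exon the control levels were 30.9 CPM per kb for Tox3, 13 for Tox, 9.72 for Tox4 and 1.59 for Tox2. Per kilobase of the whole gene they were 3.91 CPM per kb for Tox4, 1.02 for Tox3, 0.324 for Tox and 0.0447 for Tox2. Counting from the polyadenylated end gives 1 UMI a molecule whatever its length, and the order of Tox, Tox3 and Tox4 changed with the scale, so none is read between them. Tox2 was lowest per UMI and on either scale.

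Tox3, the targeted gene, was not lower in the cKO-labelled library. Its CPM ratio to control over all kept nuclei was 1.14 (1.08 to 1.20). UMIs from parts of the gene outside the deleted segment are still counted, the segment is not given in the sources used here, and the count per gene therefore does not check the genotype. The study itself measured almost full loss of Tox3 by quantitative PCR in cerebella of this genotype at the same age. The CPM ratio between the libraries was 1.06 (1.00 to 1.12) for Tox, 1.38 (1.1 to 1.75) for Tox2 and 0.870 (0.810 to 0.934) for Tox4. Among nuclei with an Xist UMI alone the Tox ratio was 0.982 (0.916 to 1.05), on the other side of 1. None of the 4 members passed 1.5-fold in either direction, where 14.8% of the 20214 genes with at least 20 UMIs did. These whole-library ratios mix cell types whose shares differ between the libraries, since GNP-like nuclei were 11% of control and 1.75% of the cKO-labelled library.

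Class by class, the members past 1.5-fold were found in the granule lineage and in microglia-like nuclei. Counted among members with at least 20 UMIs, 2 of 3 passed in GNP-like nuclei, where 32.8% of all tested genes passed, and 2 of 3 in GN-like nuclei, where 12.2% did. In both stages these were Tox and Tox3, and Tox in GNP-like nuclei rested on 31 and 3 UMIs with an interval that held 1. With both granule stages pooled it was 1 of 3 against 19.8% of genes. In microglia-like nuclei it was 1 of 1 against 26.5%. None passed among the 4 tested in glutamatergic cerebellar nuclei (CN)-like nuclei (17.8% of genes), Purkinje cell-like nuclei (12.5%) and oligodendrocyte lineage-like nuclei (25.9%). None of 3 passed in GABAergic interneuron-like nuclei (11.2%) and Bergmann glia-like nuclei (16.1%). Among the unnamed clusters the count was 0 of 3 in cluster 3 (18.2%) and cluster 14 (20.9%), and 0 of 4 in cluster 17 (23.1%).

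**Figure D1:**
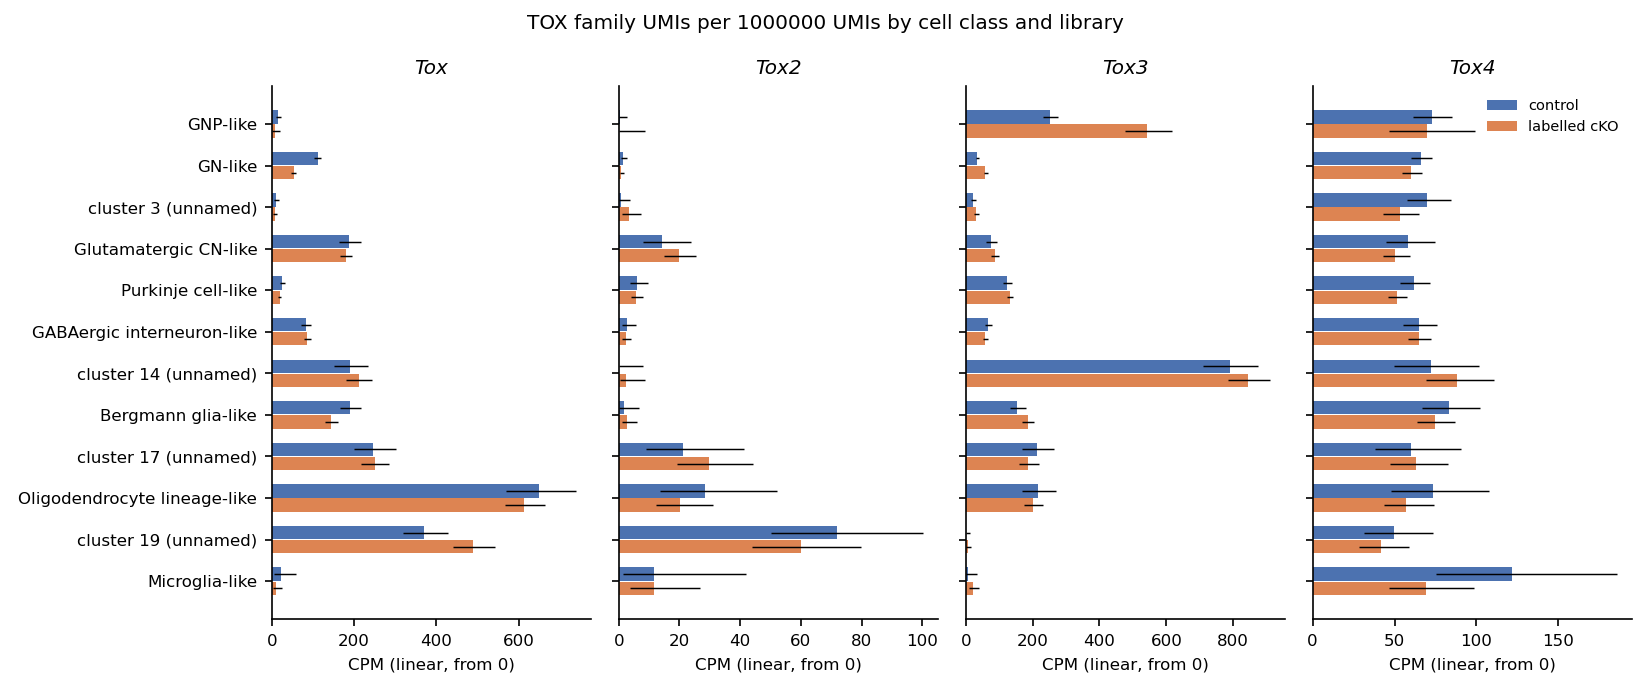
Levels of the 4 members in CPM (x axes, linear and each on its own scale) in 12 classes and unnamed clusters, with bars for the 2 libraries and lines for exact 95% Poisson intervals. Tox is longest in oligodendrocyte lineage-like nuclei, Tox2 and Tox reach high levels in cluster 19 where Tox3 is near 0, Tox3 is longest in cluster 14 and Tox4 is present in each class.

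Tox was highest in oligodendrocyte lineage-like nuclei. It had 229 UMIs or 649 CPM (568 to 739) in control and 611 UMIs or 613 CPM (566 to 664) in the cKO-labelled library, 3.42-fold (2.82 to 4.15) above the next named class in control. These nuclei carried Pdgfra, Sox10 and Gpr17 among their leading genes, which mark the precursor stages of the lineage. Of the control nuclei in this class, 50% held 3 or more Tox UMIs, with up to 10 in a nucleus, and the share with any Tox UMI was 84.2%. The class held 1.63% of control nuclei and 11.3% of all control Tox UMIs. The ratio between the libraries was 0.945 (0.810 to 1.1).

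A glial and a neuronal class came next with similar Tox levels in control. Bergmann glia-like nuclei had 190 CPM (165 to 218) and glutamatergic CN-like nuclei 188 CPM (163 to 217), a ratio of 1.01 (0.825 to 1.23). In the cKO-labelled library they had 145 and 180 CPM, and these differed beyond counting error at a ratio of 1.24 (1.08 to 1.43). The Tox ratio between the libraries was 0.763 (0.638 to 0.914) in Bergmann glia-like nuclei and 0.953 (0.808 to 1.13) in glutamatergic CN-like nuclei. Next in control were GN-like nuclei at 111 CPM and GABAergic interneuron-like nuclei at 82.6 CPM. Purkinje cell-like nuclei (25.1 CPM) and GNP-like nuclei (15.1 CPM) lay near microglia-like nuclei, which had 4 Tox UMIs in each library (23.2 and 9.19 CPM). They did not differ beyond counting error from their neighbours in the control order. Those neighbours were microglia-like and fibroblast and mural-like nuclei (1 Tox UMI), with too few UMIs for a close comparison. In the cKO-labelled library GN-like nuclei came next above Purkinje cell-like nuclei, at 2.78-fold (2.24 to 3.47) their Tox level. Microglia-like nuclei were taken as the class in which transcripts of neural cells should be scarce, although Tox also acts in the immune system. Of them 7.55% (2.09% to 18.2%) in control held a Tox UMI at a median depth of 2923 UMIs. The share was 4.47% of the GNP-like nuclei at 3715.5 UMIs, so Tox there is not told apart from this level. In control, GNP-like cluster 18 had 2.72-fold (1.24 to 6.29) the Tox level of GNP-like cluster 13, on 20 and 11 UMIs. In the cKO-labelled library these clusters had 0 and 3 Tox UMIs.

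Classes were not uniform in Tox. Among glutamatergic CN-like clusters, cluster 21 (leading genes Meis2, Zfhx3, Tfap2d and Lhx9, all transcription factors) reached 481 CPM in control and 400 CPM in the cKO-labelled library. Cluster 15, the larger one, had 140 and 151 CPM, a ratio of cluster 21 to cluster 15 of 3.44 (2.54 to 4.64) and 2.64 (2.15 to 3.22). Among GABAergic interneuron-like clusters, cluster 7, with the glycine transporter gene Slc6a5 among its leading genes, had 157 and 144 CPM. Clusters 8 and 12 had 59.7 and 43.5 CPM in control and 64.4 and 61.4 CPM in the cKO-labelled library, all below cluster 7. Among Purkinje cell-like clusters, cluster 10, led in part by Ebf2, had 2.54-fold (1.55 to 4.24) the Tox level of cluster 6 in control and 3.29-fold (2.15 to 5.18) in the cKO-labelled library. The same order of clusters thus occurred in both libraries for each of these classes. The clusters were drawn from these nuclei without the TOX genes, and their differences are a description.

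Cluster 19 was another place of high Tox. Its leading genes included Zfhx3, Cntn5 and Cntnap5a, it held the GABAergic markers Gad1, Gad2 and Slc32a1, and none of these markers was among its leading genes, so it was left unnamed. Tox had 180 UMIs in 54 control nuclei, or 370 CPM (318 to 429), and 376 UMIs in 100 nuclei of the cKO-labelled library, or 489 CPM (441 to 541). The ratio was 1.32 (1.1 to 1.59). The Tox2 level was highest here in control, 2.54-fold (1.23 to 5.75) the next cluster, with 35 and 46 UMIs, or 72 CPM (50.2 to 100) and 59.9 CPM (43.8 to 79.9). Tox3 had only 1 UMI in control and 5 in the cKO-labelled library, or 2.06 and 6.51 CPM. Cluster 19 held 31.5% of all control Tox2 UMIs in 1.16% of the nuclei.

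In the cKO-labelled library Tox2 in cluster 19 did not differ from that in CN-like cluster 21 beyond counting error (1.05, 0.602 to 1.89). Named classes reached at most 28.3 CPM (13.6 to 52.1), from 10 UMIs, in control oligodendrocyte lineage-like nuclei, and 20.1 CPM from 20 UMIs in the cKO-labelled library. Glutamatergic CN-like nuclei had 15 and 58 UMIs, or 14.3 and 19.8 CPM, with 26.7 and 57.1 CPM in cluster 21 (4 and 19 UMIs). Cluster 17 held astrocyte markers such as Aqp4 and Slc1a2 but had the Bergmann glia marker Tnc among its leading genes. It had 21 and 29.9 CPM of Tox2. Its Tox level was also high, at 247 CPM in control and 250 CPM in the cKO-labelled library. These were 1.30-fold (1.01 to 1.67) and 1.72-fold (1.44 to 2.06) the Tox level of Bergmann glia-like cluster 2. Its Tox3 level was 213 and 188 CPM. No neighbouring named classes in the Tox2 order differed beyond counting error in either library. In the granule lineage Tox2 had 9 UMIs in 1683 control nuclei and 5 UMIs in 1615 nuclei of the cKO-labelled library. These levels were below the 11.6 and 11.5 CPM in microglia-like nuclei, which rested on only 2 and 5 Tox2 UMIs. GNP-like nuclei of the cKO-labelled library had 0 Tox2 UMIs, which allows up to 6.96 CPM by 3 counts.

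Tox3 was highest in cluster 14 and, among named classes, in GNP-like nuclei. Cluster 14 held markers of GABAergic interneurons (Tfap2b, Pax2) and of GABAergic progenitors (Pax3, Kirrel2) among its leading genes in equal number and was left unnamed. Its Tox3 level was 789 CPM (710 to 875) from 359 UMIs in control and 845 CPM (783 to 909) from 701 UMIs in the cKO-labelled library. In control this was 6.83-fold (5.34 to 8.82) above cluster 7, the GABAergic interneuron-like cluster with the most Tox3. Tox3 UMIs were found in 88.0% of control nuclei of cluster 14, and 56.0% held 3 or more. The ratio between the libraries was 1.07 (0.941 to 1.22), so the level here differed little between them.

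GNP-like nuclei had 516 Tox3 UMIs, or 252 CPM (231 to 275), in control and 234 UMIs, or 543 CPM (475 to 617), in the cKO-labelled library. In control they did not differ from oligodendrocyte lineage-like nuclei at 215 CPM (ratio 1.17, 0.918 to 1.51), whereas in the cKO-labelled library the ratio of these classes was 2.70 (2.23 to 3.28). Bergmann glia-like nuclei had 154 and 185 CPM and Purkinje cell-like nuclei 124 and 133 CPM, and control levels differed between each of these neighbours. Glutamatergic CN-like nuclei (75.5 and 87.1 CPM), GABAergic interneuron-like nuclei (66.9 and 58.5 CPM) and GN-like nuclei (35.1 and 59.0 CPM) followed. Microglia-like nuclei had 1 and 9 Tox3 UMIs, or 5.79 and 20.7 CPM, and fibroblast and mural-like nuclei had none in 9 and 13 nuclei. The named neural class nearest to microglia-like nuclei had 6.07-fold (1.08 to 241) their level in control (GN-like) and 2.83-fold (1.47 to 6.24) in the cKO-labelled library (GABAergic interneuron-like).

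Cluster 21 also had the higher Tox3 level within the glutamatergic CN-like class. It was 147 CPM in control and 298 CPM in the cKO-labelled library, a ratio of 2.03 (1.27 to 3.38), on 22 and 99 UMIs. Cluster 15 had 63.6 and 60.1 CPM, a ratio of 0.945 (0.693 to 1.30). Purkinje cell-like cluster 10 had 179 and 153 CPM, above cluster 6 at 85.9 and 115 CPM in both libraries. The ratio between the libraries was 0.854 (0.723 to 1.01) in cluster 10 and 1.34 (1.11 to 1.63) in cluster 6, and 1.07 (0.945 to 1.22) over the class. Cluster 7 of the GABAergic interneuron-like class had 116 and 111 CPM of Tox3, 2.40-fold (1.69 to 3.42) and 2.80-fold (2.17 to 3.64) cluster 8. Subtypes with more Tox within these 3 classes were thus also those with more Tox3.

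Tox4 was found in every named class. Its control level lay between 58.3 CPM in glutamatergic CN-like nuclei and 122 CPM (75.2 to 186) in microglia-like nuclei over the named classes of 50 or more nuclei, and between 50.5 and 74.5 CPM in the cKO-labelled library. No neighbours in the order of classes differed beyond counting error in either library, which does not show that the ends of the order are alike. Among clusters compared within a class, control cluster 9 had 1.53-fold (1.17 to 1.99) the Tox4 level of cluster 0, and in the cKO-labelled library it had 1.14-fold (0.820 to 1.55). Microglia-like nuclei had 21 and 30 Tox4 UMIs, more than of any other member. The ratio between the libraries was under 1 in Purkinje cell-like nuclei, with 62.2 and 51.4 CPM (0.826, 0.686 to 0.998). In microglia-like nuclei the ratio was 0.567 (0.314 to 1.04). The ratio was 0.956 (0.623 to 1.42) in GNP-like and 0.911 (0.789 to 1.05) in GN-like nuclei.

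**Figure D2:**
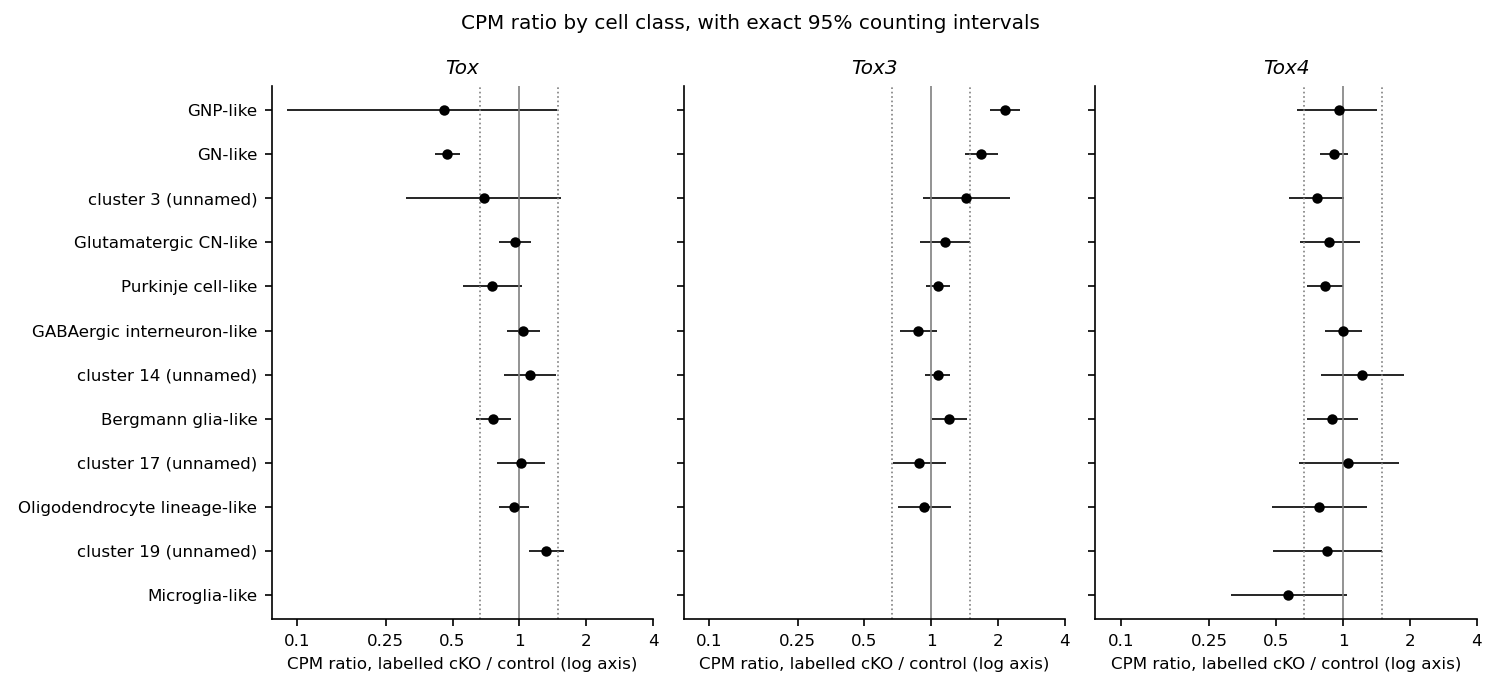
CPM ratio of the cKO-labelled library to control (x axis, log scale) for Tox, Tox3 and Tox4 in each class or unnamed cluster with at least 20 UMIs of the gene, with exact 95% counting intervals. Solid lines mark a ratio of 1 and dotted lines 1.5-fold, and Tox lies left of 1 while Tox3 lies right of it in GN-like nuclei.

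Among named classes, those of the granule lineage showed the largest departures from 1 with intervals that left it out. In GN-like nuclei Tox had 661 UMIs in 1169 control nuclei, or 111 CPM (103 to 120), and 340 UMIs in 1500 nuclei of the cKO-labelled library, or 52.7 CPM (47.2 to 58.6). This is a ratio of 0.474 (0.415 to 0.541). Tox3 had 209 UMIs, or 35.1 CPM (30.5 to 40.2), and 381 UMIs, or 59.0 CPM (53.2 to 65.3), a ratio of 1.68 (1.42 to 2.0). Summed over the class, the members thus lay on opposite sides of control, which does not show that this held in the same nuclei. GN-like cluster 9 held 130 of the Tox3 UMIs and 48 of the Tox UMIs in control. Over the family's UMIs in GN-like nuclei, Tox made up 52.0% in control and 30.5% in the cKO-labelled library, and Tox3 16.4% and 34.2%.

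Within each sex the directions were the same. Among GN-like nuclei with an Xist UMI the Tox ratio was 0.448 (0.379 to 0.529), and among those with Y-linked but no Xist UMIs it was 0.575 (0.447 to 0.735). The corresponding Tox3 ratios were 1.49 (1.20 to 1.87) and 1.93 (1.41 to 2.66). In GNP-like nuclei the Tox3 ratio was 2.15 (1.84 to 2.52), with 2.26 (1.85 to 2.74) among female nuclei by that measure and 1.90 (1.34 to 2.65) among male ones. Each direction thus occurred in nuclei of either sex. Tox in GNP-like nuclei rested on 31 and 3 UMIs, 15.1 and 6.96 CPM (ratio 0.460, 0.0899 to 1.47). Assigning nuclei by summed markers in place of clusters gave 30 and 15 UMIs and a ratio of 1.70 (0.850 to 3.26), so no direction is given for it.

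The shares of nuclei with a UMI followed the levels. A Tox3 UMI was found in 53.7% (49.3% to 58.1%) of control GNP-like nuclei and 81.7% (73.5% to 88.3%) of those of the cKO-labelled library, or in 21% and 39.1% after thinning to 1000 UMIs a nucleus. Unthinned, microglia-like nuclei had a Tox3 UMI in 1.89% and 5.26%. Their median depth was 2923 and 2541 UMIs, against 3715.5 and 3494 in GNP-like nuclei. No GNP-like nucleus was too shallow to be thinned. Nuclei with 3 or more Tox3 UMIs were 10.7% and 24.3% of the class. For Tox in GN-like nuclei the shares with a UMI were 28.1% (25.5% to 30.7%) and 13.7% (12.0% to 15.5%), or 8.86% and 4.14% after thinning, which left out 7 and 2 nuclei. Here 6.16% and 2.33% of nuclei held 3 or more Tox UMIs, and the highest count in a nucleus was 11 and 8. Fewer nuclei had a UMI and those that did held fewer, 2.02 against 1.66 Tox UMIs on average. These averages and the shares with 3 or more UMIs were not thinned and depend on depth. GN-like nuclei with a Tox UMI had a median depth of 5440 UMIs in control and 4802 in the cKO-labelled library.

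**Figure D3:**
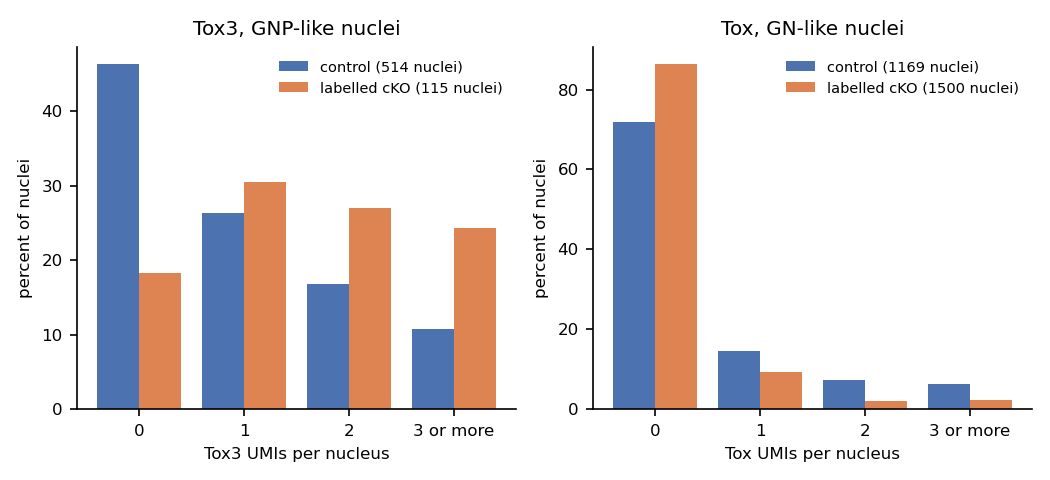
Percent of nuclei (y axes, from 0) with 0, 1, 2 and 3 or more UMIs of Tox3 in GNP-like nuclei (left) and of Tox in GN-like nuclei (right), by library. Bars of the cKO-labelled library exceed control at 1 or more Tox3 UMIs and lie under control at 1 or more Tox UMIs.

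In control, Tox3 was higher and Tox lower in the GNP-like clusters than in GN-like clusters 4 and 0. GNP-like cluster 13 held dividing nuclei (Top2a, Mki67 and Kif11 among its leading genes), GNP-like cluster 18 was led by Gli2, an effector of Sonic hedgehog signalling, and GN-like clusters 9, 4 and 0 were led in part by Reln. Tox3 in control was 285 CPM in cluster 18, 230 in cluster 13, 153 in cluster 9, 25.8 in cluster 4 and 11.5 in cluster 0. In the cKO-labelled library it was 625, 514, 320, 58.7 and 17.5 CPM. Each cluster was thus higher in the cKO-labelled library, with ratios of 2.19 (1.65 to 2.88), 2.24 (1.84 to 2.72), 2.09 (1.68 to 2.62), 2.28 (1.53 to 3.45) and 1.53 (1.04 to 2.29), and the order was kept. The fold from cluster 0 to cluster 9 was 13.3 (9.35 to 19.4) in control and 18.2 (14 to 24.0) in the cKO-labelled library.

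Tox in control was 24.4 CPM in cluster 18, 8.96 in cluster 13, 56.4 in cluster 9, 132 in cluster 4 and 115 in cluster 0. Clusters 4 and 0 were 2.35-fold (1.70 to 3.29) and 2.05-fold (1.52 to 2.82) cluster 9. In the cKO-labelled library the levels were 0, 9.35, 47.7, 44.1 and 56.3 CPM, and clusters 4 and 0 were 0.923 (0.597 to 1.45) and 1.18 (0.818 to 1.75) times cluster 9. The step between cluster 9 and the other GN-like clusters seen in control was not found in the cKO-labelled library. Ratios between the libraries were 0.846 (0.526 to 1.35) in cluster 9, 0.333 (0.246 to 0.445) in cluster 4 and 0.488 (0.415 to 0.573) in cluster 0. Cluster 18 had 20 Tox UMIs in control and 0 in 39 nuclei of the cKO-labelled library, which allows up to 27.2 CPM by 3 counts.

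**Figure D4:**
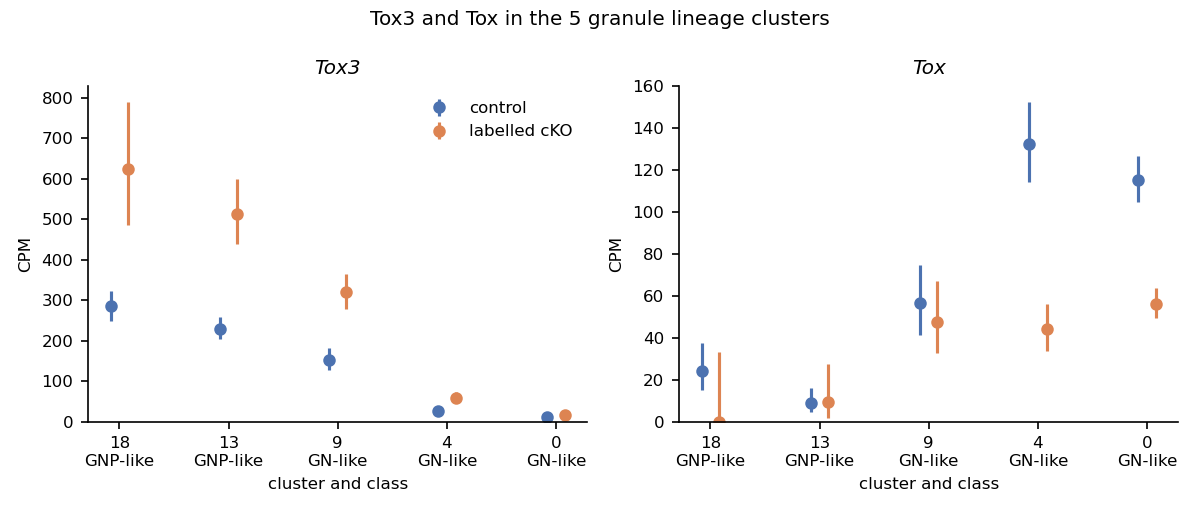
Tox3 (left) and Tox (right) in CPM (y axes, from 0) in the 5 granule lineage clusters, by library, with exact 95% Poisson intervals. Tox3 is higher in the cKO-labelled library in each cluster, and Tox is lower in clusters 4 and 0 and close to control in cluster 9.

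Over the granule lineage taken whole, the Tox3 level was close in the 2 libraries although each stage was higher in the cKO-labelled one. It had 725 and 615 UMIs, or 90.6 and 89.3 CPM, a ratio of 0.986 (0.884 to 1.1), and GNP-like nuclei were 514 of 1683 in control and 115 of 1615 in the cKO-labelled library. Without the doublet filter, which changed the clusters, this ratio was 1.29 (1.15 to 1.44). In that run a cluster with 4 GN markers, led by Svep1, stayed unnamed. Its 572 control nuclei and 832 nuclei of the cKO-labelled library were thus left out of the lineage. The value therefore covers another set of nuclei and does not show an effect of doublets. With the filter, the Tox ratio over the lineage was 0.576 (0.505 to 0.656) and that of Tox4 0.897 (0.787 to 1.02). Unnamed cluster 3, which held 8 GN markers and had Slc17a6 among its leading genes, was low in Tox, with 10.4 and 7.21 CPM, and had 22 and 31.6 CPM of Tox3 (ratio 1.43, 0.922 to 2.26). Counting it with GN-like nuclei gave ratios of 0.473 for Tox and 1.64 for Tox3.

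Members were set against each other within nuclei of a class. Of 120 comparisons of one member's level in nuclei with and without a UMI of another, 16 had an interval that left out 1, with 10 higher and 6 lower. Among 120 intervals some leave out 1 by counting error alone, and they were not widened for the number of comparisons. Many pairs were compared in both directions, so the 16 are not all separate results. Those with a limit close to 1 are the least certain. In control GN-like nuclei, Tox3 was 22.6 CPM in nuclei with a Tox UMI and 41.2 CPM in those without, a ratio of 0.550 (0.385 to 0.771), and in the cKO-labelled library it was 47.1 and 61.4 CPM (0.767, 0.558 to 1.04). In glutamatergic CN-like nuclei Tox3 was higher where Tox was detected, with 93.6 and 56.7 CPM of Tox3 in control nuclei with and without a Tox UMI (1.65, 1.03 to 2.71) and 113 and 64.7 CPM in the cKO-labelled library (1.74, 1.35 to 2.26). Control Tox3 was lower in nuclei with a Tox4 UMI (0.609, 0.373 to 0.978), whereas the cKO-labelled library had a ratio of 1.17 (0.905 to 1.52). In the cKO-labelled library Tox2 was higher in nuclei with a Tox3 UMI, at 34.7 and 12.0 CPM (2.90, 1.67 to 5.14). In Purkinje cell-like nuclei Tox was lower in nuclei with a Tox3 UMI, with ratios of 0.582 (0.353 to 0.946) and 0.677 (0.460 to 0.995). Tox there was higher in nuclei with a Tox4 UMI, with ratios of 2.60 (1.56 to 4.46) and 1.94 (1.32 to 2.86). Neither pair showed this in reverse. In Purkinje cell-like nuclei with a Tox UMI, the Tox3 ratios were 1.06 (0.752 to 1.46) and 1.20 (0.951 to 1.51). The Tox4 ratios were 0.916 (0.538 to 1.48) and 1.15 (0.771 to 1.66). Each of these intervals held 1, so neither exclusion nor joint presence is read from them. For Tox in control GN-like nuclei with a Tox3 UMI the ratio was 0.969 (0.750 to 1.24). In glutamatergic CN-like nuclei with a Tox3 UMI, the Tox ratio was 0.984 (0.726 to 1.32) in control and 1.48 (1.24 to 1.77) in the cKO-labelled library. Tox4 there had 0.877 (0.491 to 1.52) in control. Tox3 in such nuclei with a Tox2 UMI had 1.81 (1.33 to 2.44) in the cKO-labelled library. In GNP-like nuclei no pair that could be compared had an interval that left out 1. Cells of a class share their library and differ in subtype and depth, and these values are a description.

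A nucleus rarely held UMIs of many members. Over all kept nuclei 50.9% of control and 46.4% of the cKO-labelled library had no TOX UMI, 15.7% and 17.5% had UMIs of 2 or more members, and 4 and 11 nuclei had all 4. Oligodendrocyte lineage-like nuclei had 2 or more members in 55.3% and 47.6%, cluster 14 in 54.0% and 46.5%, and glutamatergic CN-like nuclei in 42.2% and 38.0%. In microglia-like nuclei the shares were 3.77% and 1.32%. These shares depend on depth, which was 8225 UMIs at the median in Purkinje cell-like cluster 6 and 3895 in oligodendrocyte lineage-like cluster 16.

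Across 22 clusters with at least 20 nuclei in each library, the log2 levels of Tox and Tox2 had a Pearson correlation of 0.56 in control and 0.63 in the cKO-labelled library. Tox2 had 111 UMIs in control, with none in several of these clusters, and the members were exempt from the minimum of 200 UMIs set for other genes. Its correlations therefore rest on few clusters. The other pairs of members lay between -0.37 and 0.37. Clusters share libraries and differ in depth, so the values are given without a p. Tox was most like Gm44593 and Gm33680, both non-coding, Ncan (neurocan, a proteoglycan of brain matrix), Adgrb1 (an adhesion receptor) and Gabrg1 (a GABA-A receptor subunit), with correlations between 0.58 and 0.77 over 10600 genes compared. Tox2 was most like Gm43507, Zfhx3 (a homeobox factor), Ldb2 (a LIM-domain binding cofactor), Prr16 and Pdzd2, between 0.68 and 0.76, and 1 of these 5 remained without the minimum of UMIs. For Tox3 these were Mir9-3hg (host transcript of a neural microRNA), Mmp14 (a membrane-bound matrix metalloproteinase), Rai14 (an actin-associated protein), Ccbe1 and Gm11266, between 0.71 and 0.82. For Tox4 they were Med15 (a Mediator subunit), Mark2 (a microtubule-affinity kinase), Marf1, Atp13a1 and Atf7ip (a chromatin cofactor), between 0.76 and 0.88. The Tox4 companions are genes expressed in most cells, like Tox4 itself. Of the 20 genes named, 14 remained without the minimum of UMIs and 15 with 1 CPM added in place of 5.

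Genes known to act with the family were counted from fixed lists, as those past 1.5-fold with at least 20 UMIs. All 5 genes of the PTW/PP1 complex besides Tox4 (Ppp1r10, Wdr82 and the PP1 catalytic subunits) stayed within 1.5-fold over all kept nuclei, in GNP-like and in GN-like nuclei, with median log2 ratios of -0.23, -0.03 and 0.03, where the medians over all tested genes were -0.02, -0.07 and -0.01. Of the 5 reported partners of Tox3 (Creb1, Crebbp, Crtc1, Cited1 and Atoh1), 2 were past 1.5-fold and lower over all kept nuclei, where 14.8% of all genes were past it. In either granule stage it was 0 of 3, against 32.8% of genes in GNP-like and 12.2% in GN-like nuclei. These 3 were Creb1, Crebbp and Crtc1, since Atoh1 and Cited1 had under 20 UMIs in each stage and were not counted. Atoh1 had 42 UMIs in control and 3 in the cKO-labelled library, a ratio of 0.0485 (0.00962 to 0.152), and Cited1 had 29 and 26 UMIs (0.609, 0.345 to 1.07). Creb1, the DNA-binding partner, had 174 and 192 CPM in GNP-like nuclei (1.11, 0.861 to 1.41). Within the stages Atoh1 had 16 and 0 UMIs in GNP-like nuclei, or 7.81 CPM and up to 6.96 CPM by 3 counts, and 9 and 0 UMIs in GN-like nuclei, or 1.51 CPM and up to 0.465 CPM. The interval of the Atoh1 ratio was 0 to 1.23 in GNP-like nuclei and 0 to 0.467 in GN-like nuclei, where it left out 1. The share of GNP-like nuclei also differed between the libraries, and it cannot be told apart from the level per nucleus in the whole-library ratio.

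The HBO1 acetyltransferase complex, which Tox binds in lymphocytes, had 0 of 9 genes past 1.5-fold over all kept nuclei and in GN-like nuclei. In GNP-like nuclei 1 of 8 passed, where 32.8% of all genes did, the scaffold gene Brpf1 with 117 and 37 UMIs, or 57.1 and 85.8 CPM (1.5, 1.01 to 2.19). Among the 7 NFAT and Nr4a factors linked to Tox in lymphocytes, none passed over all kept nuclei, 2 of 5 were lower in GNP-like nuclei and 1 of 5 was higher in GN-like nuclei, against 14.8%, 32.8% and 12.2% of all genes past the fold in either direction. Nfatc1 had 35 UMIs in control GNP-like nuclei and 1 in those of the cKO-labelled library (0.136, 0.00334 to 0.807), and Nfatc2 had 20, or 9.77 CPM, and 0, which allows up to 6.96 CPM by 3 counts. Both are calcium-activated factors, and both rested on few UMIs. Nfat5, the osmotic-stress member, had 179 and 121 CPM in GNP-like nuclei (0.673, 0.493 to 0.902), just short of 1.5-fold. In GN-like nuclei Nr4a2, an orphan nuclear receptor, had 20 and 45 UMIs (2.08, 1.20 to 3.71). The HMG-box genes outside the Sox family had 1 of 18 past 1.5-fold over all kept nuclei, 3 of 17 in GNP-like nuclei and 1 of 17 in GN-like nuclei, each below those shares. The counts in these lists are small, and none is read as a result about its list.

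In that list, Hmgb2, a chromatin protein of dividing cells, was lower over all kept nuclei, with 57.7 and 32.6 CPM (0.565, 0.519 to 0.616), and had 178 and 218 CPM in GNP-like nuclei (1.23, 0.967 to 1.54). Lef1, a Wnt effector, was higher in GNP-like nuclei, with 53 and 30 UMIs, or 25.9 and 69.6 CPM (2.69, 1.66 to 4.28). It was also higher in GN-like nuclei, with 5.88 and 15.3 CPM (2.61, 1.76 to 3.95). Tox3 and Lef1 were thus the HMG-box genes counted here that lay above 1.5-fold in both granule stages. The 2 other genes past the fold in GNP-like nuclei, Tfam and Tcf7l2, had intervals that held 1.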

How the data were processed

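Single-nucleus RNA-seq (10x Genomics, counted from the polyadenylated end) was available as 1 control library and 1 cKO-labelled library. The deposited values were raw UMI counts per gene and nucleus, made by the authors with Cell Ranger 7.0.1 on mm10. Whether intronic reads were counted is not given in the sources used here, and no correction for free RNA was applied. Nuclei with over 25% mitochondrial UMIs were removed (1 and 5), as were likely doublets by Scrublet score within a library (scanpy 1.11.5, the top 0.8% per 1000 barcodes, 189 and 386), from 4857 and 6946 barcodes. Nuclei were integrated over 30 dimensions and clustered on 20 dimensions at resolution 0.8 with Seurat 5.3.0 in R 4.3.3, on 2997 features without TOX genes.

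A cluster took the name of a marker list if 3 or more markers each reached 10% of its nuclei and 2-fold the median of the other clusters (5 CPM added), and if the list's average log2 fold reached 1. One named class is not reported here. A cluster stayed unnamed for low depth, for a tie, or where its 10 leading genes went against the name. The clusters were known when this rule was written, so names may differ from the study's. The members, lists and rules were chosen with earlier results of these data known.

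Intervals were Poisson for CPM, Clopper-Pearson for shares and conditional binomial for ratios, and cover counting error only. The named genes were the members, list genes past 1.5-fold with an interval leaving out 1 over all or GNP-like nuclei, and the 5 genes most like each member by the lower correlation of the libraries (log2 of CPM plus 5, at least 200 UMIs in each library). Other list genes (Cited1, Creb1, Nfat5, Tfam, Tcf7l2) and values in GN-like nuclei were added after they had been seen. Code for ratios was tested on simulated data. Alternatives covered the doublet filter, median-of-ratios scaling, thinning, depth, sex, clustering and a gate on summed markers. Python 3.11.15, numpy 2.4.6 and scipy 1.17.1 were used. Annotation was GENCODE release 21 on GRCm38, matched by gene ID.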

Additional observations from a re-analysis of the deposited data

Results flagged for a closer look

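The Tox ratio of the cKO-labelled library to control lay on opposite sides of 1 in different cell populations, each with a counting interval that left out 1. It was 1.32 in unnamed cluster 19, 0.474 in GN-like nuclei and 0.763 in Bergmann glia-like nuclei. The difference between these populations was not tested, since each library was a single sample.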

How the results depend on the processing

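Ratios of the 4 members were recomputed over all kept nuclei, the granule lineage, GNP-like and GN-like nuclei. Of 150 such ratios, 133 stayed within the counting interval of the reported value and 17 did not. A wide interval could hardly be left, as for Tox2 in GNP-like nuclei (0 to 185, on 1 and 0 UMIs). Resolution 0.4 gave the same GNP-like ratios as the reported ones. The count of 133 is therefore not read as a measure of stability. Among ratios whose reported interval left out 1, only that of Tox over all kept nuclei crossed 1, at 0.982 in nuclei with an Xist UMI. Ratios whose interval held 1 also took values on either side of it. Tox over all kept nuclei was 1.15 with Y-linked but no Xist UMIs and 1.18 after thinning to 1000 UMIs. Over the granule lineage Tox was 0.70 for male nuclei by the same measure and 0.678 with nuclei assigned by summed markers, where Tox3 was 1.18. Tox3 there was 1.29 without the doublet filter and 1.11 without integration, and Tox2 was 0 after thinning. Without the doublet filter and without integration, a further cluster with GN markers stayed unnamed (572 and 832 nuclei, and 281 and 336). Those 2 values thus cover other nuclei than the reported one. In GNP-like nuclei Tox was 0 with a Y-linked UMI and 1.70 by summed markers. In GNP-like nuclei the Tox3 ratio lay between 1.90 and 2.26 and in GN-like nuclei between 1.49 and 2.08, and the Tox ratio in GN-like nuclei lay between 0.372 and 0.575, over every alternative run. The causes were not tested. The share of genes past 1.5-fold was 8.76% with at least 100 UMIs and 28.1% with at least 1 UMI. Counting cluster 3 with GN-like nuclei was added after seeing the data. No paired analysis was possible because each group was 1 library, and no library could be left out. Depth limits Tox2 throughout and Tox in GNP-like nuclei.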

Other observations

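Clusters 1 and 5, left unnamed for low depth, held 1015 control nuclei and 702 of the cKO-labelled library. Their pooled levels were 39.0 and 54.1 CPM of Tox, 59.2 and 78.0 CPM of Tox3, and 53.5 and 30.3 CPM of Tox4, from 27 and 25, 41 and 36, and 37 and 14 UMIs. Without these and the other unnamed clusters, the whole-library ratio of Tox3 was 1.08 (1.01 to 1.15) and that of Tox2 was 1.5 (1.11 to 2.05).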
